A study of Curvularia clavata with 15 samples.

Results

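The rpn-4 deletion of Curvularia clavata was compared with its wild type (WT) on lignosulfonate, a water-soluble sulfonated lignin. The members were the 3 Δrpn-4 and the 3 WT libraries labelled with the lignosulfonate medium, 6 of the 15 libraries of the series, and the comparison ran over 10170 listed gene IDs. The filter on low values (at least 1 FPKM in at least 3 libraries) left 9265 to test. Both groups were mycelia of strain J1 harvested on day 4 from 100 mL shaken cultures (30 °C, 200 rpm) in Vogel's minimal medium with 2% lignosulfonate and 0.25% glucose. They differed in genotype alone, per the labels. The other 9 libraries, used here for levels and for the shared estimate of spread, were WT on 2% glucose and the ΔCclaeA and Δtah-1 mutants on the lignosulfonate medium, 3 of each. The sources used here give neither how the deletion was made nor how many transformants were sampled, nor whether a group's libraries came from separate cultures. The p-values therefore measure the spread between these libraries, which may be technical in part.

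Rpn4 is known from budding yeast as a short-lived transcription factor that binds upstream of proteasome genes and raises their transcription. It is itself degraded by the proteasome, which closes a feedback loop on the capacity of cells to remove proteins. In filamentous fungi the proteasome, secreted enzymes and secondary metabolism are studied as parts of growth on plant polymers, but what rpn-4 does in C. clavata is not known from the labels. The files pair no ID with a gene name, so proteasome genes, lignin-modifying enzymes and rpn-4 itself were not looked up, no sequence is shown, and genes are named by ID with no role given.

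The FPKM values express the mapped fragments of each gene per length of its transcript and relative to all mapped fragments of the library. They are given in 2 ways, as deposited and scaled by the median of ratios, where each library is divided by the median ratio of its values to their geometric mean over libraries. Called IDs had a limma p under 0.05 after Benjamini-Hochberg adjustment and differed at least 2-fold on the log2(FPKM + 1) scale, which understates changes of low IDs. FPKM sums ran from 875068 to 948472 in WT and from 1005073 to 1039594 in Δrpn-4, and the read depth is unknown from these values. Only the WT files have headers that name the unit, so kind of file and genotype cannot be told apart in this comparison. Mycelium is a mixture of cells, and fewer cells of a type cannot be told apart from less RNA per cell.

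The Δrpn-4 transcriptome was concentrated in far fewer IDs than that of WT. The 100 most abundant IDs held 50.9, 51.2 and 51.1% of the FPKM sum in the 3 Δrpn-4 libraries and 27.5, 28.7 and 28.8% in the 3 WT libraries. The groups lay far apart, with almost no spread among the mutant libraries. It took 93, 90 and 91 IDs to reach 50% of the sum in Δrpn-4, against 590, 534 and 536 in WT. In the other groups the number ran from 312 to 408 in WT on glucose, from 578 to 622 in ΔCclaeA and from 530 to 543 in Δtah-1, so that every Δrpn-4 library lay below every other library of the series. The 10 most abundant IDs held 25.9% ± 0.517 (SD, n = 3) in Δrpn-4 and 11.9% ± 0.152 in WT, a difference of 13.99 percentage points (exact two-sided permutation test, p = 0.10, the smallest that 3 against 3 libraries allow). In each Δrpn-4 library 11 IDs had at least 10000 FPKM, against 4 or 5 in a WT library.

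**Figure D1:**
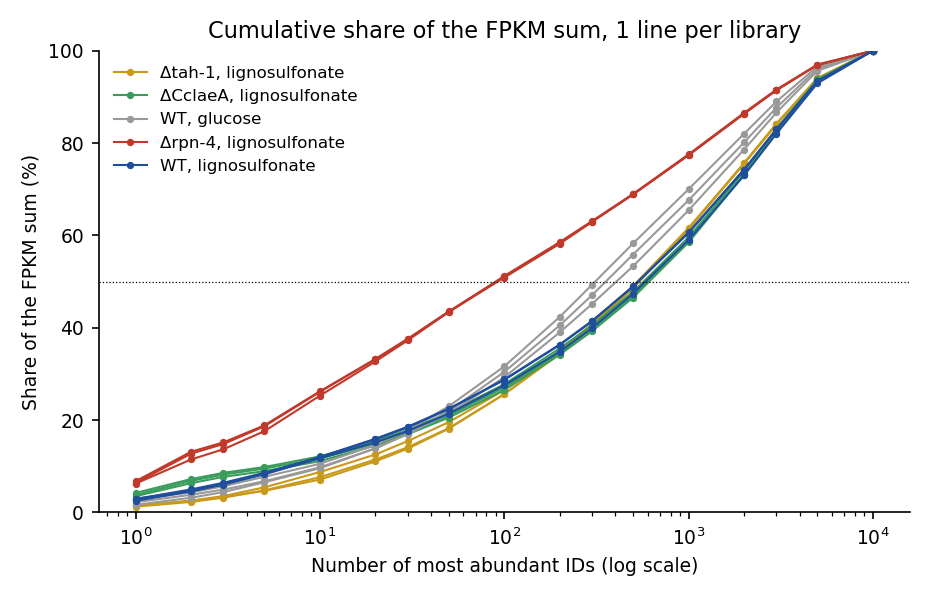
Cumulative share of the FPKM sum (%) against the number of most abundant IDs (log scale), 1 line per library for the 15 libraries in 5 groups. The dotted line marks 50% of the sum, which the Δrpn-4 lines reached at 90 to 93 IDs and the lines of WT on lignosulfonate at 534 to 590.

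Below the abundant IDs the levels as deposited were lower in Δrpn-4. The median over the tested IDs was 20.9, 21.2 and 20.8 FPKM in the Δrpn-4 libraries and 39.8, 39.2 and 36.0 FPKM in the WT libraries (exact two-sided permutation test, p = 0.10, the smallest possible here). The size factors of the 3 mutant libraries were 0.678, 0.691 and 0.677, below those of the 12 others, which ran from 0.801 to 1.29. Fewer IDs reached 1 FPKM as deposited in Δrpn-4, 8742 to 8794 per library against 9028 to 9043 in WT. A fixed cut is stricter where the size factor is low, so this count is not separate from the lower levels. The other groups had 8528 to 8543 on glucose, 8887 to 8929 in ΔCclaeA and 8909 to 9080 in Δtah-1.

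The 2 most abundant IDs of the mutant already ranked among the first 3 in WT. yc1106_07527 had 16111, 19139 and 18170 FPKM in WT and 62671, 66495 and 64199 FPKM in Δrpn-4. The lowest mutant library was above the highest WT library by a wide margin, and the log2 fold change was 1.86 as deposited (SE 0.28, limma adjusted p = 3.57e-05) and 2.72 after scaling (SE 0.27, limma adjusted p = 1.93e-06). yc1106_06890 had 11793, 12830 and 12653 FPKM in WT and 52594, 70150 and 64399 FPKM in Δrpn-4. Its groups did not overlap either, with log2 fold changes of 2.32 as deposited (SE 0.24, limma adjusted p = 1.64e-06) and 3.18 after scaling (SE 0.25, limma adjusted p = 2.42e-07). Groups did not overlap for 803 tested IDs higher in Δrpn-4 and 7014 lower as deposited, and for 3051 and 2801 after scaling, of 9265. Outside the comparison yc1106_07527 had 1126 ± 194 FPKM in Δtah-1, 444 ± 150 in ΔCclaeA and 3785 ± 1335 on glucose, and yc1106_06890 had 790 ± 190, 170 ± 44.7 and 4752 ± 1163 FPKM in the same groups (SD, n = 3 each). Every library of Δrpn-4 exceeded every other library of the series at both IDs.

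Of the 10 IDs with the highest mean in Δrpn-4, 4 were also in the first 10 of WT, and the lowest placed ranked 90th in WT. Choosing by the level in Δrpn-4 favours a rise, and choosing by the level in WT favours a fall. Of the 10 most abundant in WT, 3 were called higher in Δrpn-4 under either scaling, where 2.9% of all tested IDs were called higher as deposited and 9.72% after scaling. Of the same 10, 1 was called lower as deposited and none after scaling (limma), beside 34.9% and 3.22% of all tested IDs. The 1 called lower was yc1106_09585, the most abundant ID of WT, which was singled out, like yc1106_06939, after its values were seen. It went from 25517 to 12590 FPKM in group means, a log2 fold change of -1.02 as deposited and -0.15 after scaling. yc1106_06939, the fifth most abundant ID of WT, had 8518, 14440 and 3284 FPKM in WT and 1240, 1598 and 1454 FPKM in Δrpn-4. Its groups did not overlap, but it was not called under either scaling, with log2 fold changes of -2.38 as deposited (SE 1.20, limma adjusted p = 0.0883) and -1.51 after scaling (SE 1.13, limma adjusted p = 0.293). Groups did not overlap on the lower side for 7014 of the 9265 tested IDs as deposited and 2801 after scaling.

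Across all tested IDs the deposited values showed a broad downward shift in Δrpn-4 with a tail of rises. The scaling removed the shift of the median, as dividing by a median ratio largely requires. As deposited 3503 IDs were called, 37.8% of those tested, with 269 higher (2.9%) and 3234 lower (34.9%). The median log2 fold change was -0.79. After scaling 1199 were called, 12.9% of those tested, with 901 higher (9.72%) and 298 lower (3.22%), and the median was -0.01. The balance of calls thus turned with the scaling. Upper-quartile scaling gave 633 higher and 630 lower, and equal sums outside the 100 most abundant IDs of the series gave 411 and 1653. Conversion to TPM gave 221 and 4181. The 269 higher IDs as deposited were all among the 901, and the 298 lower IDs after scaling were all among the 3234, which follows largely from the scaling itself, since it moved the fold changes of most IDs up together.

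After scaling the distribution was longer on the upper side. The 1st and 99th percentiles of the log2 fold change were -1.30 and 2.80, and the 5th and 95th were -0.87 and 1.46. At least 4-fold differences were called for 214 IDs that were higher and 8 that were lower (limma). At least 8-fold differences were called for 74 higher and 0 lower (limma). Lower by at least 8-fold were 0 IDs at an unadjusted p under 0.05 and 1 whatever its p. As deposited, at least 8-fold differences were called for 21 higher and 3 lower IDs. At least 16-fold rises were called for 6 IDs as deposited and 18 after scaling. As deposited 1 ID with a log2 fold change between 4.7 and 4.8 was not called. After scaling 1 ID between 5.4 and 5.5 did not meet the rule for named rises. On the log2(FPKM + 1) scale 0 IDs were as much as 16-fold lower under either scaling, whatever their p. That scale limits the fall that an ID of low WT level can show. In a search added after seeing the data, 11 of 9051 IDs with a WT mean of at least 1 FPKM were listed at 0 in each Δrpn-4 library. Each of these 11 was under 1 FPKM in at least 1 WT library. The 2-fold threshold ran through a dense part of the distribution: after scaling 129 called IDs had a rise between 1 and 1.1 on the log2 scale, and 150 others past the p threshold lay between 0.9 and 1.

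**Figure D2:**
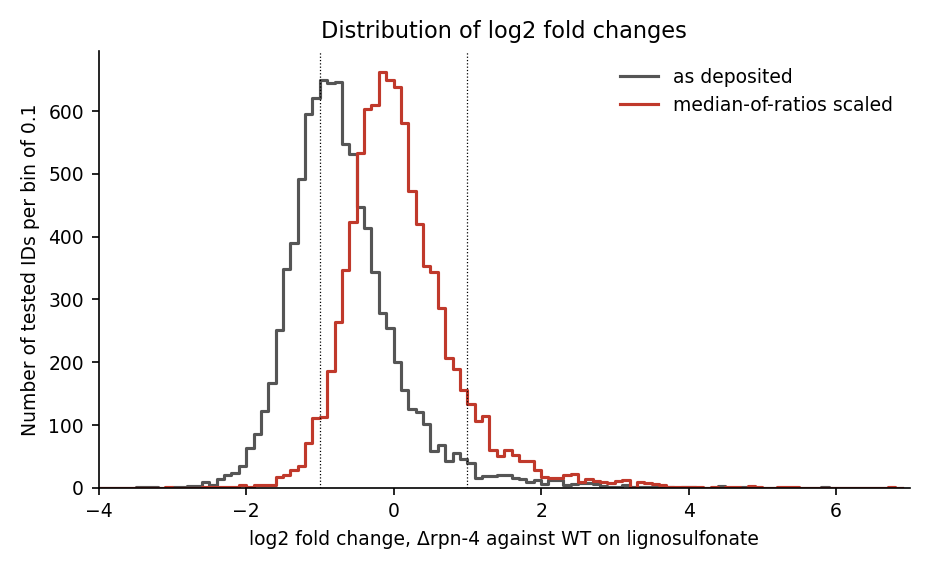
Number of tested IDs per bin of 0.1 against the log2 fold change of Δrpn-4 over WT on lignosulfonate, as deposited (grey) and median-of-ratios scaled (red). Dotted lines mark 2-fold changes, and the median moved from -0.79 to -0.01 with the scaling, as dividing by a median ratio largely requires.

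The 2 largest rises among IDs called under both scalings were those of yc1106_04000 and yc1106_07373. The rule for named rises and falls also required groups that do not overlap under either scaling, so that trait is no further result. yc1106_04000 had 26.3, 29.3 and 24.2 FPKM in WT and 1505, 1784 and 1618 FPKM in Δrpn-4. All mutant libraries lay far above WT, with log2 fold changes of 5.89 as deposited (SE 0.62, limma adjusted p = 2.80e-06) and 6.74 after scaling (SE 0.61, limma adjusted p = 9.21e-07). Its SE comes from all 5 groups, and WT on glucose was spread widely, at 786, 456 and 59.5 FPKM. The means of yc1106_04000 were 60.7 ± 15.2 FPKM in Δtah-1 and 17.7 ± 2.62 in ΔCclaeA (SD, n = 3 each).

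yc1106_07373 had 751, 961 and 1254 FPKM in WT and 22276, 20287 and 21108 FPKM in Δrpn-4, where it was the third most abundant ID. The groups did not overlap, as the rule required. The log2 fold changes were 4.45 as deposited (SE 0.21, limma adjusted p = 2.49e-09) and 5.32 after scaling (SE 0.28, limma adjusted p = 3.83e-09). Its levels outside the comparison were below those in WT on lignosulfonate, at 494 ± 119 FPKM in Δtah-1, 197 ± 32.3 in ΔCclaeA and 76.3 ± 7.11 on glucose (SD, n = 3 each).

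The next 10 rises by the same ranking had scaled log2 fold changes from 4.53 to 5.28. Their means ran from 13.3 to 1019 FPKM in WT and from 230 to 15788 FPKM in Δrpn-4. Elsewhere they ran from 4.55 to 253 FPKM in Δtah-1, from 5.88 to 132 in ΔCclaeA and from 0.53 to 590 on glucose. The rises therefore included low and high IDs of WT alike.

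The 2 largest falls were far smaller in size. yc1106_04924 had 216, 231 and 307 FPKM in WT and 23.1, 26.5 and 18.6 FPKM in Δrpn-4. The groups did not overlap, as the rule required. The log2 fold changes were -3.41 as deposited (SE 0.26, limma adjusted p = 1.78e-07) and -2.56 after scaling (SE 0.32, limma adjusted p = 2.01e-05). Its level varied widely over the series, with 541 ± 160 FPKM in Δtah-1, 9.79 ± 0.866 in ΔCclaeA and 2812 ± 905 on glucose (SD, n = 3 each), so that Δrpn-4 stood between ΔCclaeA and WT on lignosulfonate.

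yc1106_02960 had 477, 397 and 457 FPKM in WT and 47.6, 42.0 and 41.6 FPKM in Δrpn-4. The log2 fold changes were -3.31 as deposited (SE 0.21, limma adjusted p = 3.94e-08) and -2.46 after scaling (SE 0.14, limma adjusted p = 6.60e-09). Its order over the groups was another one: 293 ± 123 FPKM in Δtah-1 and 211 ± 2.25 in ΔCclaeA were above Δrpn-4, and 2.44 ± 0.325 on glucose was below it (SD, n = 3 each). The next 10 falls had scaled log2 fold changes from -2.36 to -1.75, with means from 18.1 to 923 FPKM in WT and from 1.75 to 139 FPKM in Δrpn-4.

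**Figure D3:**
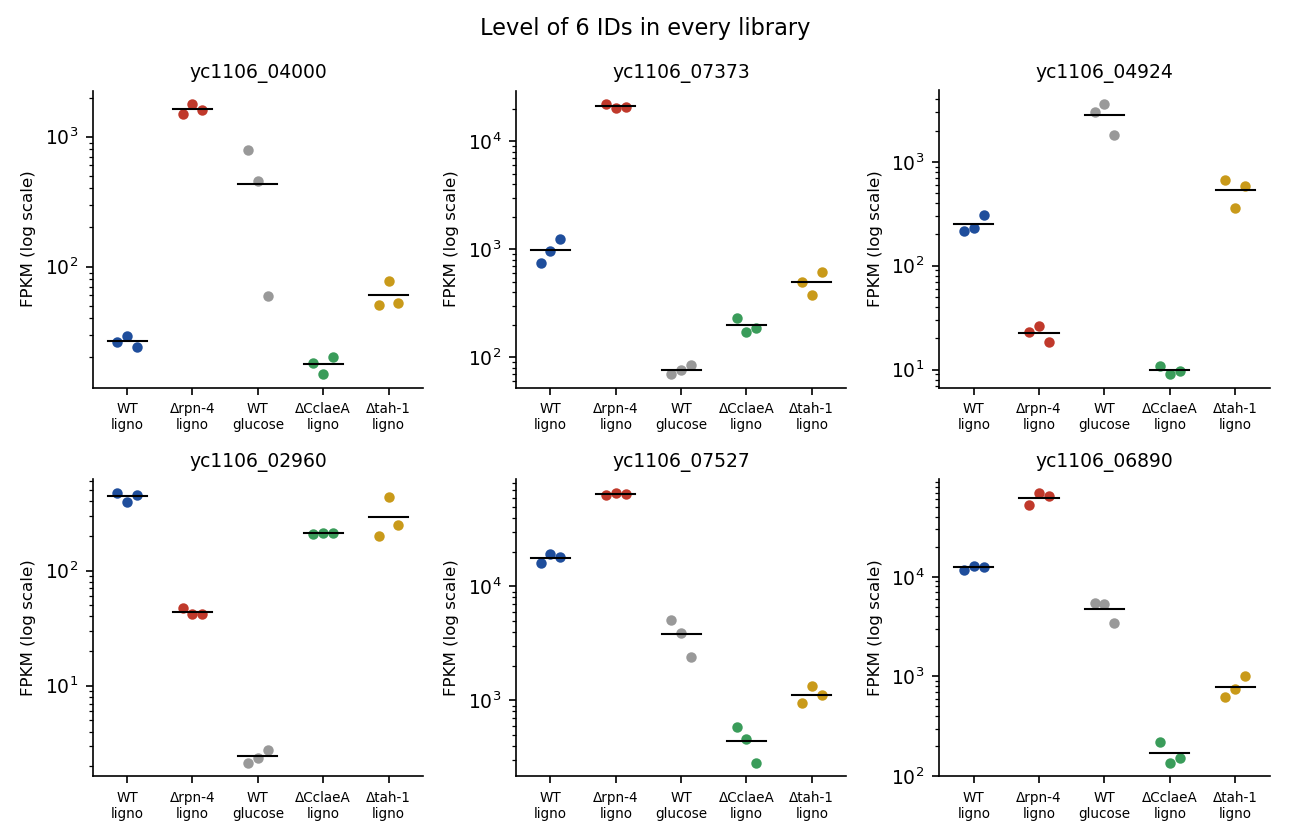
FPKM (log scale) of the 2 largest rises, the 2 largest falls and the 2 most abundant IDs of Δrpn-4 in every library of the 5 groups, with points for libraries and lines for group means (n = 3). The 2 rises and the 2 most abundant IDs were highest in Δrpn-4, and neither fall was lowest there, since yc1106_04924 was lower in ΔCclaeA and yc1106_02960 in WT on glucose.

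No ID present in each WT library was close to 0 in Δrpn-4 unless its WT level was low. The transcript of rpn-4 was not identified, so the deletion was not checked by its own level, and the search below covers all IDs. Among the 8917 IDs with at least 1 FPKM in each WT library, the one least retained in Δrpn-4 still had 9.04% of its WT mean as deposited, and 16.3% after scaling. Under 10% of the WT mean remained for 5 of these IDs in Δrpn-4 and under 5% for 0. The same count under 5% was 41 in ΔCclaeA and 15 in Δtah-1, where the least retained IDs had 0 and 0.154% of the WT mean. The 25 IDs above 0 in each WT library and listed at 0 in each Δrpn-4 library were low in WT, with a highest mean of 2.89 FPKM. When the WT mean was used in place of each WT library, a search added after seeing the data, 4 of 8265 IDs with a WT mean of at least 5 FPKM kept under 5% of it in Δrpn-4. These 4 were listed at 0 in each Δrpn-4 library, and each was also under 1 FPKM in at least 1 WT library. The highest WT mean among them was that of yc1106_06094, named after its values were seen, at 29.97, 0 and 27.27 FPKM in WT. It was not called, with a log2 fold change of -3.26 as deposited (SE 1.51, limma adjusted p = 0.0673), and it was also listed at 0 in each Δtah-1 library. Whether rpn-4 is one of the IDs listed at 0 was not tested. In the other direction, 0 IDs had at least 5 FPKM in each Δrpn-4 library and under 0.5 in each WT library.

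The IDs called higher under both scalings took over a large part of the mutant transcriptome. These 269 IDs, selected on this contrast, held 45.4% ± 0.377 (SD, n = 3) of the FPKM sum in Δrpn-4 and 11.3% ± 1.20 in WT. In groups not used to select them they held 7.28% ± 0.920 in Δtah-1, 4.15% ± 0.211 in ΔCclaeA and 8.86% ± 0.228 on glucose. The remaining IDs together went from 88.7% to 54.6% of the sum, a change in share of -0.70 on the log2 scale. Shares are relative to each library's own FPKM sum, and the sums were higher in Δrpn-4. This value is therefore not on the scale of the median log2 fold change of single IDs, and the 2 were not compared. The 298 IDs called lower under both scalings were a minor part, with 0.545% ± 0.018 in Δrpn-4 and 2.74% ± 0.113 in WT.

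**Figure D4:**
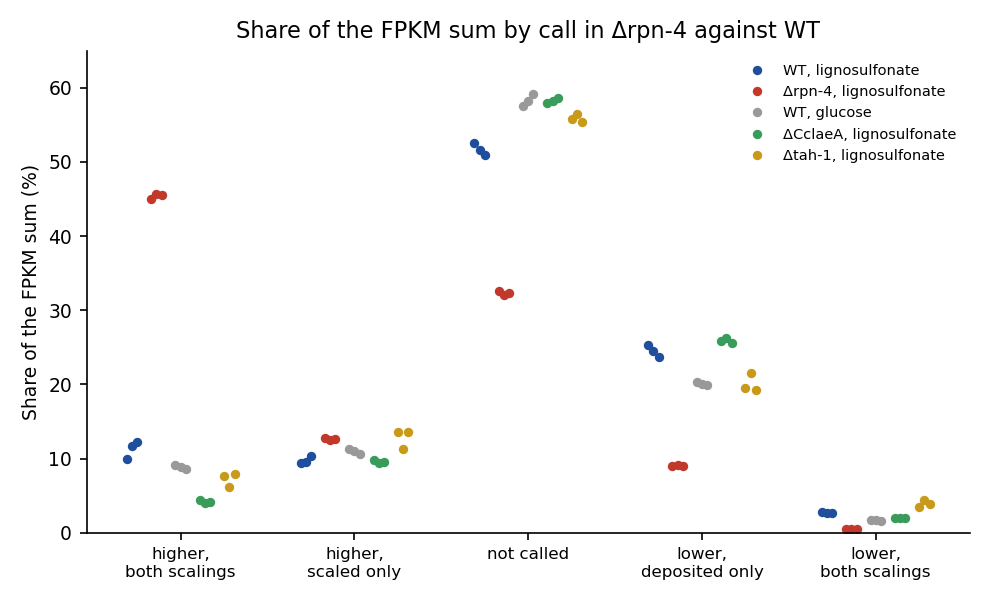
Share of the FPKM sum (%) held in every library by the tested IDs, split by how they were called in Δrpn-4 against WT on lignosulfonate under the 2 scalings, with 1 point per library and colours for the 5 groups. The 269 IDs higher under both scalings held 45.0 to 45.7% in the Δrpn-4 libraries and 9.94 to 12.3% in the WT libraries that the calls compared.

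The sets were chosen by their level in the Δrpn-4 libraries, which favours an extreme place among the 15, so the counts against the other 9 libraries are a description. All 3 Δrpn-4 libraries were above all of the 9 for 184 of the 269 higher IDs as deposited and 214 after scaling, against 437 and 1084 of all 9265 tested IDs. The 18 IDs with at least 16-fold scaled rises had a median level of 2356 FPKM in Δrpn-4 and 234 in its WT, beside 60.0 in Δtah-1, 39.5 in ΔCclaeA and 81.2 on glucose. For the 298 lower IDs the 3 Δrpn-4 libraries were below all of the 9 in 119 cases as deposited and 70 after scaling, against 2260 and 599 of all tested IDs. The median level of the 298 was 7.82 FPKM in Δrpn-4 and 36.6 in its WT, beside 22.3 in Δtah-1, 21.8 in ΔCclaeA and 11.2 on glucose. After scaling the same medians were 11.5, 29.4, 22.7, 19.0 and 10.2, the nearest to Δrpn-4 being WT on glucose. The mutants and WT on glucose were each set beside the same 3 WT libraries, and no overlap between contrasts was tested.

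IDs called under 1 scaling alone lay nearer to the 2-fold threshold, as the way they were chosen requires. The 2936 called lower only as deposited had a median log2 fold change of -1.25 before scaling and -0.46 after it. The 632 called higher only after scaling had medians of 0.44 and 1.28. Their median level was 66.7 FPKM in WT and 88.5 in Δrpn-4, whereas that of the 2936 was 34.2 in WT and 13.3 in Δrpn-4.

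The shift in Δrpn-4 was not the same at all levels. When the tested IDs were put in 10 equal classes by their mean level over the 15 libraries, the median scaled log2 fold change was -0.14 in the lowest class, -0.24 in the second, 0.03 in the seventh and 0.51 in the highest. In the highest class 244 of 927 IDs were called higher after scaling, 26.3% against 9.72% of all tested, and 13 were called lower, 1.40% against 3.22%. In the third class 58 were called higher and 58 lower. Classes formed from the 9 libraries outside the comparison, an alternative added after seeing the data, gave a median of 0.39 in the highest class, with 206 IDs higher and 11 lower, and -0.14 in the lowest. As deposited the class medians ran from -1.01 in the third class to -0.35 in the highest, so each was below 0. A single factor per library therefore does not bring all levels to 0 together. Among the 100 most abundant IDs of WT on glucose, a choice that used neither group, 34 were called higher in Δrpn-4 after scaling, against 9.72% of all tested IDs, and 3 were called lower, near the 3.22% of all tested. As deposited 15 were called higher, against 2.9%, and 12 lower, against 34.9%.

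**Figure D5:**
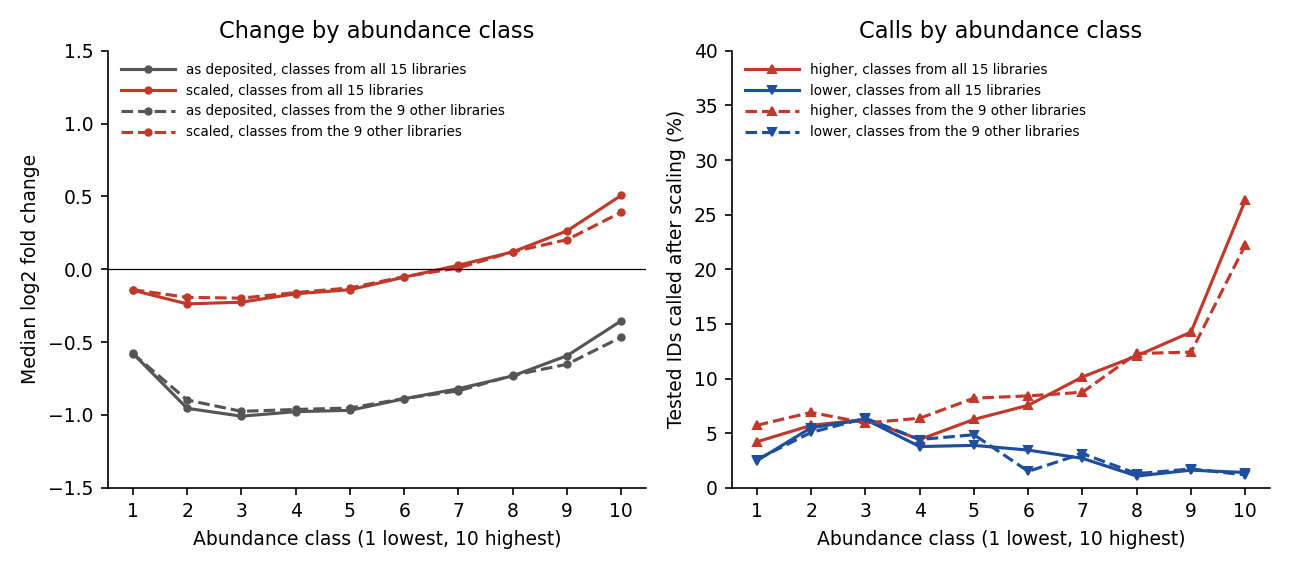
Left, median log2 fold change of Δrpn-4 over WT on lignosulfonate in 10 classes of tested IDs by mean level, as deposited (grey) and scaled (red). Right, share of each class (%) called higher (red) or lower (blue) after scaling. Solid lines use classes from all 15 libraries and dashed lines classes from the 9 libraries outside the comparison, and in both the highest class has the highest share of calls that were higher, at 26.3% and 22.2%.

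Some of the called IDs followed one another in the numbering. The sources used here do not say whether ID order is genome order. After scaling, 34 runs of at least 3 consecutive IDs were called higher and held 112 of the 901 higher IDs, and 7 runs were called lower and held 25 of the 298. The longest runs were 5 IDs long, with 2 such runs higher and 1 lower.

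Within the first of the higher runs, yc1106_00631 to yc1106_00635, the IDs had unequal changes. Of the runs, the rule for named IDs covers the first and last members, and those within a run were named after their values were seen. yc1106_00632 had 821, 1471 and 591 FPKM in WT and 8014, 9076 and 8336 FPKM in Δrpn-4, with scaled and deposited log2 fold changes of 4.11 and 3.24 (SE 0.42 and 0.40, limma adjusted p = 3.07e-06 and 8.06e-06). The 4 others, yc1106_00631, yc1106_00633, yc1106_00634 and yc1106_00635, had scaled log2 fold changes between 1.05 and 1.78 and were not called as deposited. As deposited they had their highest group mean in Δtah-1, while yc1106_00632 had its highest in Δrpn-4, and after scaling yc1106_00635 was highest in Δrpn-4 too. yc1106_00634 was no longer called after scaling without Δrpn-4 replicate 2, WT replicate 1 or WT replicate 3. In the second run, yc1106_07145 to yc1106_07149, the median of the group means was 36.1 FPKM in WT and 74.99 in Δrpn-4, and 4 of the 5 were also called higher as deposited.

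The lower run, yc1106_04668 to yc1106_04672, moved more evenly. Its 5 IDs had scaled log2 fold changes from -1.34 to -1.07 and were called under both scalings. The middle of them in level, yc1106_04671, had 170, 151 and 134 FPKM in WT and 38.6, 41.2 and 36.4 FPKM in Δrpn-4. Its groups did not overlap, like those of 2801 tested IDs lower after scaling. The ID fell after scaling by 1.09 on the log2 scale (SE 0.10, limma adjusted p = 1.17e-06), with a change of -1.94 as deposited. The median of the 5 group means was 38.7 FPKM in Δrpn-4 and 152 in its WT, beside 52.6 in Δtah-1, 16.9 in ΔCclaeA and 30.1 on glucose. yc1106_04672 was no longer called after scaling without WT replicate 2, at a log2 fold change of -0.996.

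The Δrpn-4 libraries were closer to one another than the WT libraries. The median SD of the scaled log2 values was 0.109 in Δrpn-4 and 0.148 in WT over all tested IDs, and 0.087 and 0.225 over the 269 IDs higher under both scalings. Among these 269, WT replicate 1 had the lowest of the 3 deposited WT values for 135 (50.2%), against 942 of all tested IDs (10.2%). Among the 18 called rises of at least 16-fold after scaling it was lowest for 15. These minima were taken before scaling. WT replicate 1 had the largest size factor of the 3, at 1.29 against 1.27 and 1.17, so it was lowest less often than scaled values would give. Without WT replicate 1 the scaled fit called 873 IDs higher and 275 lower, and 15 rises of at least 16-fold. What sets WT replicate 1 apart at these IDs was not tested.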

How the data were processed

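RNA-seq libraries of mycelia were deposited as 1 file per library with 1 value per gene ID. The values are FPKM, per the file headers of the 6 WT libraries. The 9 mutant libraries, 3 of them Δrpn-4, have headers without a unit and values alike in form and range. Per the submitters' processing notes the tools included RSEM 1.3.3, HISAT2 2.1.0, fastp 0.19.5 and DESeq2, with no roles stated. The sources used here name no build or annotation. FPKM files hold no read counts, so no count model was run, and precision comes from the spread between libraries.

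IDs with at least 1 FPKM in at least 3 of 15 libraries were tested. log2(FPKM + 1) was fitted with limma 3.58.1 (trend, robust; R 4.3.3) with a mean for each of the 5 groups, as deposited and after division by median-of-ratios size factors from the 8858 IDs above 0 in every library. Python 3.11.15, pandas 2.3.3 and SciPy 1.17.1 served for the rest. The scripts were tested on simulated data. No annotation was matched, so the planned gene lists were not used.

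The IDs named follow one rule: among IDs called the same way under both scalings, with groups that do not overlap and at least 10 FPKM in the higher group, the 2 largest scaled rises and falls; the 2 most abundant IDs of Δrpn-4; and the longest runs. Members, rules and lists were chosen with earlier results of these data known. Alternatives tried were another pseudocount, no filter, other minimum folds, other scalings, the 6 libraries alone, the sample number as a block, and leaving out each library.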

Additional observations from a re-analysis of the deposited data

How the results depend on the processing

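The higher and lower counts moved most with the fold threshold and the scaling. As deposited, 615 IDs were higher and 6467 lower with no minimum fold change, 483 and 5705 at 1.5-fold, 633 and 630 with upper-quartile scaling, and 411 and 1653 with equal sums outside the 100 most abundant IDs; the cause of these differences between scalings was not tested. After median-of-ratios scaling, 2327 were higher and 2023 lower with no minimum, and 1707 and 1188 at 1.5-fold. The 10 IDs with the highest mean over the 6 libraries held 24.97% of the sum in Δrpn-4 and 9.46% in WT. A pseudocount of 0.1, no filter, TPM (221 higher, 4181 lower), the 6 libraries alone, and size factors from IDs of at least 10 FPKM kept each count within 1.5 times. Leaving out 1 library gave 261 to 274 higher and 3007 to 3552 lower as deposited, 873 to 938 and 275 to 312 after scaling, medians of -0.83 to -0.75, and top-10 shares of 25.7 to 26.2% in Δrpn-4 and 11.8 to 11.97% in WT. With the sample number as a replicate block the counts were 269 and 3235 as deposited and 902 and 299 after scaling. Same-numbered libraries deviated together with correlations of 0.06, 0.28 and 0.03 across IDs, so the numbers were not taken as pairs, and not every library correlated best with its own number. The 2 largest rises, the 2 largest falls and the 2 most abundant IDs of Δrpn-4 kept their calls under all these settings. The IDs named outside runs after their values were seen, yc1106_09585, yc1106_06939 and yc1106_06094, were not followed through them. Recovery at low levels is limited by unknown depth.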
